A study of Mus musculus with 18 samples.

Results

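The 33 genes described here belong to excitation-contraction coupling and calcium handling and were followed in C2C12 myotubes given dexamethasone, ginsenoside Rc or both. The 33 members were taken by gene symbol from the 48795 Ensembl gene IDs of the count table, and each symbol matched 1 ID. Of these, 32 passed the filter on low counts that left 15436 genes for testing, and Sln, the remaining member, is given by its counts. C2C12 is an established mouse myoblast line, and the cells were differentiated into multinucleate myotubes in horse serum for 5 days before treatment. RNA came from 18 libraries in 6 groups of 3, and the study asked how ginsenoside Rc, a saponin of ginseng, alters the response of myotubes to dexamethasone, a synthetic glucocorticoid that causes muscle wasting. Controls received the vehicle (0.1% DMSO) for 36 h. The 10 µM and the 20 µM ginsenoside groups received ginsenoside Rc alone for 36 h. The dexamethasone group received vehicle for 12 h and then 200 µM dexamethasone for 24 h, and the remaining 2 groups received 10 µM or 20 µM ginsenoside Rc for 12 h before the same 24 h of dexamethasone. Whether ginsenoside Rc stayed in the medium during dexamethasone is not given in the sources used here. All groups are cultures of a single cell line without nerve, and separate cultures are not stated for the 3 libraries of a group. P-values therefore describe library-to-library spread, part or all of which could be technical.

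In a muscle fibre the action potential travels down the transverse tubules and moves the voltage sensor, the L-type calcium channel of the tubule membrane, which opens the ryanodine receptor of the sarcoplasmic reticulum beneath it. Calcium leaves the reticulum, where calsequestrin had held it, binds the thin filament and is returned by the SERCA pumps, while STIM1 and ORAI1 refill empty stores from outside the cell. Junctophilins, triadin and the tubule-shaping proteins keep the membranes together at the triad, and calmodulin-dependent kinases read the calcium signal.

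Libraries held 32350889 to 45388609 expected counts. Levels below are in CPM, a gene's counts relative to its library's TMM-scaled total, and a gene was called higher or lower where edgeR's quasi-likelihood test with Benjamini-Hochberg adjustment over all 15436 genes gave an adjusted p under 0.05. The glucocorticoid targets Fkbp5, Tsc22d3 and Klf15 were called higher with dexamethasone, by log2 fold changes of 4.17 ± 0.05, 3.26 ± 0.06 and 5.26 ± 0.13 (± SE, n = 3 per group; adjusted p = 4.12e-20, 1.12e-17 and 1.44e-15, edgeR). Replicate 2 of the 20 µM group stood apart from the other 17 libraries, with 2.79% of its counts from the mitochondrial genome against 1.26 to 1.91% elsewhere. Without that library the mitochondrial share was 1.26 to 1.57% in 8 libraries without dexamethasone and 1.54 to 1.91% in the 9 with it. Exons of 15 of the 33 members overlap a gene on the opposite strand, and the strand setting of the counting is not given in the sources used here. The longest overlap is 2302 bases of Asph, shared with Clvs1.

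Calcium pumps and a calsequestrin led the set in control myotubes. Levels were divided by the merged length of all annotated exons of a gene, not by that of the transcripts expressed, and the order depends on it. The highest level was that of Atp2a1, the fast-muscle SERCA1 pump, at 460.3 ± 7.64 CPM per kb (SD, n = 3). Casq2, the cardiac and slow-muscle calsequestrin, followed at 379 ± 10.1, then Atp2a2 (SERCA2) at 253 ± 3.41 and Bin1, which bends the tubule membrane, at 232 ± 3.69 CPM per kb. The voltage sensor's γ subunit Cacng1 (202 ± 9.85), the reticulum protein sarcalumenin, Srl (181 ± 2.42), and the fast-muscle calsequestrin Casq1 (171 ± 4.96 CPM per kb) came next. None of these 7 overlapped its neighbour in the order. Ryr1, the skeletal ryanodine receptor, stood at 41.3 ± 2.94 and its relative Ryr3 at 1.51 ± 0.124 CPM per kb. Cacna1s (81.3 ± 1.25) and Cav3 (78.3 ± 3.83) overlapped each other, as did the run Cacna2d1, Camk2a and Jph1 and the run Dysf, Scn4a, Orai1 and Stac3, neighbour by neighbour. At the low end lay Itpr1 (0.699 ± 0.0227), Mtm1 (0.515 ± 0.022) and Clcn1, the muscle chloride channel, at 0.244 ± 0.0214 CPM per kb. Cardiac Ryr2 had 4 to 7 counts and the cardiac pump inhibitor Pln 1 to 3 counts per control library. Together the 33 members took 1.12 to 1.13% of the counts of a control library. Within groups they varied little: the median coefficient of variation over the 6 groups ran from 1.57% for Stim1 to 14.3% for Pvalb, with 3.77% in the middle of the 32 tested.

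RefSeq promoter windows were on hand for 21 of the 33 members, 27 windows in all on GRCm38.p6, each from 250 bases before to 50 after a transcription start. The sequences shown belong to Atp2a1, the member with the largest rise under dexamethasone, to the calsequestrins Casq1 and Casq2, which moved in opposite directions, and to Cav3, which fell. Only bases upstream of the gene are printed, 5′ to 3′ on the gene's strand, and capitals mark an E-box (CAGCTG, the core bound by myogenic bHLH factors) in Atp2a1, Casq1 and Cav3 and a MEF2 match in Casq2.
Atp2a1 promoter, chr7:126463109-126463323, minus strand: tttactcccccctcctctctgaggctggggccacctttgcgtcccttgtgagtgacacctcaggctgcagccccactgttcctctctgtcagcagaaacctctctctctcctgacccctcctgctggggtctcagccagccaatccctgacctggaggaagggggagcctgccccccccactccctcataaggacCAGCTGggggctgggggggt
Casq1 promoter, chr1:172219896-172220145, minus strand: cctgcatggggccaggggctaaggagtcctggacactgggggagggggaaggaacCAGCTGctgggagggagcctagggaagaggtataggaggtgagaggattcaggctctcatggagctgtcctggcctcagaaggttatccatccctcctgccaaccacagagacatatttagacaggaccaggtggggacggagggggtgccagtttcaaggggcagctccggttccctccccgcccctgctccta
Casq2 promoter, chr3:102086165-102086414, plus strand: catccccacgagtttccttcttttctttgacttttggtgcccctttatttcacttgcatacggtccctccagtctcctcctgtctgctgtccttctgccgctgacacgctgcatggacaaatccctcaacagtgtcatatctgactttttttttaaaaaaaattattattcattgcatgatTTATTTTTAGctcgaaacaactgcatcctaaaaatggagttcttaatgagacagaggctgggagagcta
Cav3 promoter, chr6:112459255-112459504, plus strand: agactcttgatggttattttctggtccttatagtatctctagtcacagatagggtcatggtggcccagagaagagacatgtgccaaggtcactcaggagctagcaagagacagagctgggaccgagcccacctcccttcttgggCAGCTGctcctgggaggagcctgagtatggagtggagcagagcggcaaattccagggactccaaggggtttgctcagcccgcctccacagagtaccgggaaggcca
The Atp2a1 print has 215 bases: it stops at the gene's start in GENCODE, and the 35 bases between that and the RefSeq start are left out. Counted from the RefSeq start, the first base of the E-box lies 55 bases upstream in Atp2a1 (20 bases from the end of the print), 195 before it in Casq1 and 106 before it in Cav3, and that of the MEF2 match 69 before the start of Casq2. CAGCTG, which reads the same on both strands, stood in 9 of the 27 windows (33.3%) of 8 members and in 16.3% of 32851 promoter windows of the same length. Both windows of Jph2 overlap and hold the same CAGCTG site, which is thus counted in each. The windows with an E-box belong to members that were called higher (Atp2a1, Cacna1s, Jph2, Orai1), called lower (Casq1, Cav3) or not called (Hrc, Kcnj2) with dexamethasone. The MEF2 motif was found in 3 of the 27 windows (11.1%) against 3.19% of all windows. The hexamer TGTTCT, a core of the glucocorticoid receptor site searched on both strands (AGAACA), was found in 3 of the 27 windows (11.1%) and in 19% of all, and the palindrome GNACANNNTGTNC in 0 of 27 and in 0.475% of all. Of the 3 members with the hexamer, Clcn1 was called lower with dexamethasone alone, and Pvalb and Dysf were not called. These are matches of letters, and no binding was measured.

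Dexamethasone raised most of the members, which were chosen with earlier results of these data known, and lowered a few. The wider lists of the pathway, given below, had median log2 fold changes from -0.10 to 0.04. Of the 32 members tested, 26 were called (81.2%, against 43.8% of all 15436 genes): 21 higher, where 20.6% of all genes were, and 5 lower, where 23.2% of all genes were. The median log2 fold change was 0.34 over the 32 members and -0.01 over all genes. No member was called with a change over 2-fold, as 3.46% of all genes were upwards and 6.42% downwards, and the members ran from -0.55 for Clcn1 to 0.90 for Atp2a1. The 3 dexamethasone libraries did not overlap the 3 control libraries for 26 of the 32 tested, as for 59.3% of all genes. The members' joint share of the counts was 1.48 to 1.54% with dexamethasone. Over all genes, 3177 were called higher and 3578 lower; with library totals alone, without the composition scaling, these became 2368 and 4393, and the members' counts became 19 higher and 6 lower. In bulk RNA fewer cells of a type and less RNA per cell cannot be told apart. As a description of the cultures, the summed CPM of 11 genes of dividing or undifferentiated myoblasts was 361 to 368 in control and 221 to 228 in dexamethasone libraries, while that of 10 myotube genes was 21634 to 22365 and 22041 to 23171. A sum is weighted to its most abundant genes. The median log2 fold change was -1.21 for the myoblast genes and 0.19 for the myotube genes. The part of these shifts in the changes below was not tested.

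**Figure D1:**
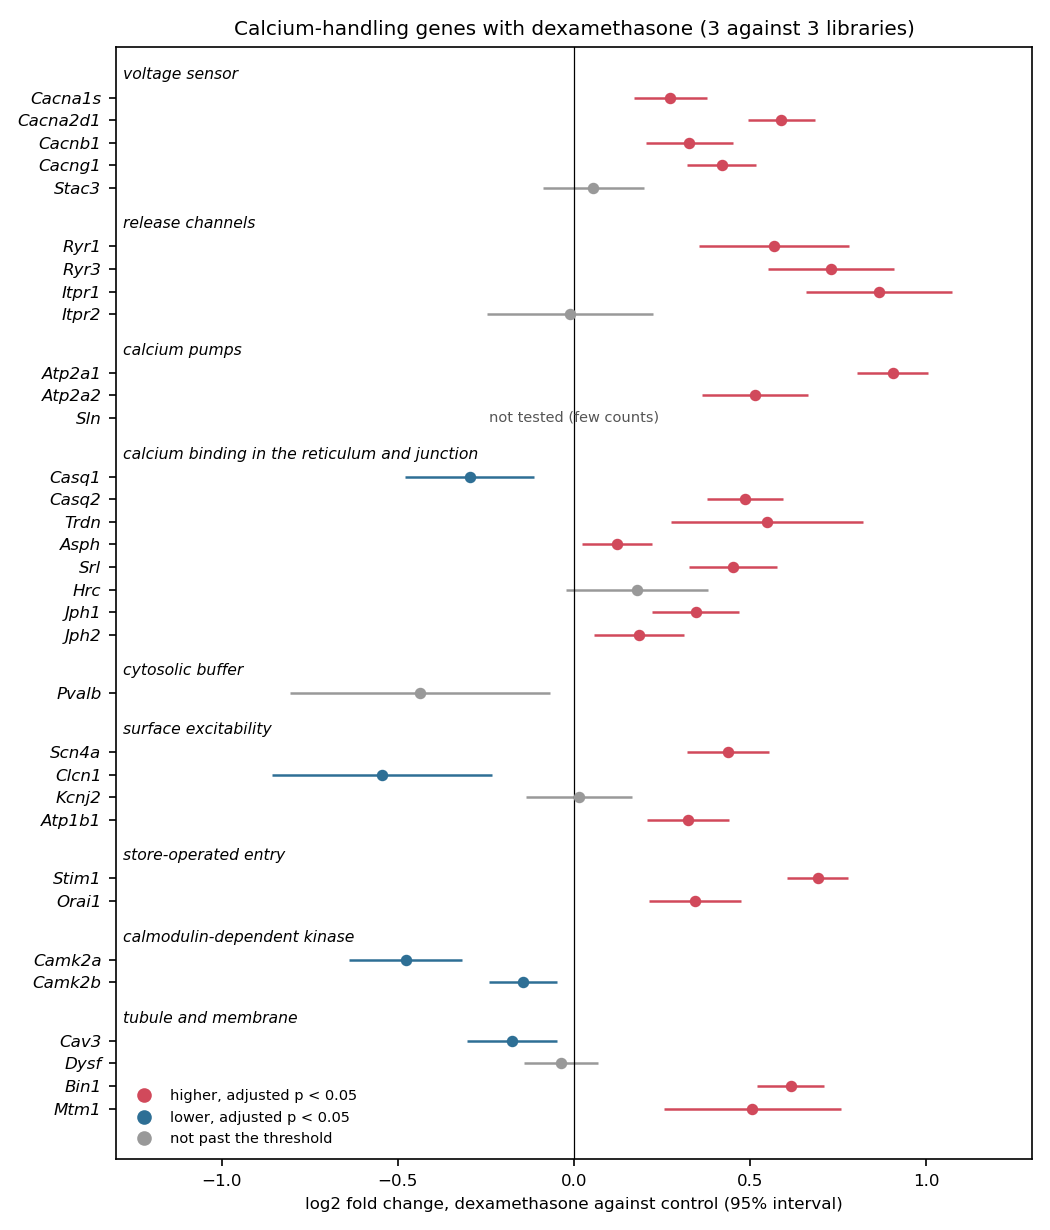
Log2 fold change of each member with dexamethasone against control, with its 95% interval (edgeR, 3 against 3 libraries), grouped by role. Red points were called higher (21), blue points lower (5) and grey points neither (6); Sln was not tested, and the largest rise is that of Atp2a1 at 0.90.

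The voltage sensor rose in 4 of its 5 members. Beside this and the counts by role that follow, 20.6% of all genes were called higher and 23.2% lower. Cacna1s (ENSMUSG00000026407, chr1:136052750-136119822, plus strand) encodes the pore and voltage-sensing subunit. It stood at 542, 527 and 529.6 CPM in the control libraries and at 639, 681 and 612 with dexamethasone. All 3 treated libraries lay above all 3 controls, with a log2 fold change of 0.27 ± 0.05 (± SE, n = 3 per group; adjusted p = 0.000157, edgeR). Cacna2d1 (ENSMUSG00000040118, chr5:15934691-16374511, plus strand), the α2δ subunit that helps to carry the channel to the membrane, had the largest change of the complex. Its controls held 373, 357 and 380.2 CPM and its dexamethasone libraries 549, 553 and 567. The groups were far apart, and the log2 fold change was 0.59 ± 0.04 (adjusted p = 4.59e-09, edgeR). The β subunit Cacnb1, which links the channel to the triad, went from 317 ± 2.14 to 397 ± 6.91 CPM (SD, n = 3; log2 fold change 0.33 ± 0.06), and Cacng1 from 252 ± 12.3 to 337 ± 14 (0.42 ± 0.05). Stac3, the adaptor that skeletal coupling needs, was not called, at 49.6 ± 1.78 and 51.5 ± 3.7 CPM, with a 95% interval of the log2 fold change of -0.09 to 0.20.

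Release channels of the reticulum rose in 3 of 4 members. Ryr1 (ENSMUSG00000030592, chr7:29003344-29125179, minus strand), the channel that the voltage sensor opens, was at 968, 894 and 841 CPM in controls and 1261, 1416 and 1328 with dexamethasone. Despite a spread wider than that of most members, the groups did not overlap, and the log2 fold change was 0.57 ± 0.10, or 1.48-fold (adjusted p = 0.000158, edgeR). Ryr3 (ENSMUSG00000057378, chr2:112631355-113217096, minus strand), a relative found in immature muscle, stood at 31.3, 28.2 and 26.7 CPM in controls and 47.4, 49.6 and 45.7 with dexamethasone. Every treated library was above every control (0.73 ± 0.08 on the log2 scale, adjusted p = 1.18e-06, edgeR). Itpr1 (ENSMUSG00000030102, chr6:108213096-108551109, plus strand), the type 1 inositol trisphosphate receptor, was the member with the second largest rise. Its values were 13.3, 12.6 and 12.5 CPM in controls and 22.8, 23.2 and 24 with dexamethasone. That is a clean separation and a log2 fold change of 0.87 ± 0.10 (adjusted p = 8.85e-07, edgeR). Its type 2 relative Itpr2 was not called, at 18.6 ± 1.13 and 18.5 ± 0.268 CPM, and the interval of its log2 fold change was -0.25 to 0.23.

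Both pumps that return calcium to the reticulum rose. Atp2a1 (ENSMUSG00000030730, chr7:126445858-126463108, minus strand) stood at 1603, 1626 and 1573 CPM in the control libraries and 2869, 3108 and 3008 with dexamethasone. No treated library came near a control, and the rise of 1.87-fold (log2 fold change 0.90 ± 0.05, 95% interval 0.80 to 1.00, adjusted p = 3.45e-11, edgeR) was the largest among the members. Atp2a2, the pump of slow and cardiac muscle and of other cells, went from 1540.5 ± 20.7 to 2200.5 ± 30 CPM (log2 fold change 0.51 ± 0.07, adjusted p = 1.02e-05, edgeR). The 2 pumps together made up 28.7 to 29.0% of the members' summed CPM in controls and 33.8 to 34.0% with dexamethasone. Without them, the other members summed to 7696 to 7819 CPM in controls and 9985 to 10310 with dexamethasone. Sarcolipin, Sln, a small inhibitor of SERCA, was close to undetected. It had 0 counts in each control library, where a count of 0 allows up to 3 counts, or 0.0662 to 0.0800 CPM (counting error only). With dexamethasone the libraries held 2, 6 and 1 counts. Over all 18 libraries, 1 count was found in the 9 without dexamethasone and 40 in the 9 with it, at most 7 per library and at least 1 in each of the 9; levels this low were not tested.

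Proteins that bind calcium inside the reticulum or build the junction rose in 6 of 8 members, and the skeletal calsequestrin fell. Casq1 (ENSMUSG00000007122, chr1:172209894-172219868, minus strand) stood at 333, 323 and 342 CPM in controls and 259, 280.0 and 274 with dexamethasone. All treated libraries were lower than all controls, with a log2 fold change of -0.30 ± 0.09 (adjusted p = 0.00976, edgeR). Casq2 (ENSMUSG00000027861, chr3:102086415-102146514, plus strand) went the other way, from 1012, 1034 and 1067 to 1438, 1430.2 and 1491 CPM. The groups were again apart (0.49 ± 0.05, adjusted p = 3.46e-07, edgeR). Triadin, Trdn, which ties calsequestrin to the ryanodine receptor, rose by 0.55 ± 0.13 on the log2 scale (52.6 ± 3.5 to 76.8 ± 3.5 CPM), and sarcalumenin, Srl, by 0.45 ± 0.06 (965 ± 12.9 to 1319 ± 66.1 CPM). Of the junctophilins that bridge tubule and reticulum, Jph1 rose by 0.35 ± 0.06 and Jph2 by 0.18 ± 0.06. Asph, whose locus also encodes the junction protein junctin, rose least (0.12 ± 0.05, adjusted p = 0.0434, edgeR), and its groups overlapped. Hrc, the histidine-rich calcium-binding protein, stood at 311 ± 8 and 352 ± 12.5 CPM and was not called (adjusted p = 0.144, edgeR), although its groups did not overlap. The Jph2 call was lost without control replicate 1 (log2 fold change 0.17) or dexamethasone replicate 2 (0.14) and without composition scaling (0.12). The Asph call was lost in 6 of 13 alternatives, which included leaving out control replicate 1 (0.10), control replicate 2 (0.11), dexamethasone replicate 2 (0.09) or dexamethasone replicate 3 (0.13). Hrc, in turn, passed without replicate 2 of the 20 µM group in the model (adjusted p = 0.000501, edgeR) and with only the compared groups in it (0.00113).

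Store-operated entry rose in both members. Stim1 (ENSMUSG00000030987, chr7:102267806-102437319, plus strand), the sensor of calcium in the reticulum, held 93.3, 91.6 and 92.7 CPM in controls and 146, 158 and 145 with dexamethasone. Controls lay close together and far below the treated libraries, with a log2 fold change of 0.69 ± 0.04 (adjusted p = 1.68e-10, edgeR). Orai1, the channel it opens, went from 45.3 ± 1.12 to 57.5 ± 0.836 CPM (0.34 ± 0.06). Among the 4 genes of surface excitability, the muscle sodium channel Scn4a rose by 0.44 ± 0.06 and the sodium pump subunit Atp1b1 by 0.32 ± 0.06 on the log2 scale. The chloride channel Clcn1, near 1 CPM, fell (1.31, 1.21 and 1.45 CPM in controls, 0.774, 0.967 and 0.967 with dexamethasone). Its groups did not overlap, but its lowest library held only 32.4 counts. The log2 fold change was -0.55 ± 0.15 (adjusted p = 0.00625, edgeR), and -0.45 (adjusted p = 0.0569) without dexamethasone replicate 1. The inward rectifier Kcnj2 was not called, at 29 ± 0.847 and 29.3 ± 0.838 CPM (interval -0.14 to 0.17).

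Both kinase members, Camk2a and Camk2b, fell, and the tubule and membrane genes split. Camk2a held 219, 201 and 213 CPM in controls and 149, 153 and 153 with dexamethasone. The treated libraries lay close together and below all controls, a log2 fold change of -0.48 ± 0.08 (adjusted p = 5.05e-05, edgeR). Camk2b held 40.5, 41.6 and 40.3 and 37.6, 37.8 and 35.4 CPM. The groups were close but apart (-0.15 ± 0.05, adjusted p = 0.015, edgeR), and the call was lost without control replicate 2 (-0.13) or dexamethasone replicate 3 (-0.11) and without a low-count filter (-0.14). The sarcolemmal caveolin Cav3 (ENSMUSG00000062694, chr6:112459505-112472872, plus strand) stood at 94.9, 90.8 and 86 CPM in controls and 76.1, 86.2 and 78.1 with dexamethasone. Dexamethasone replicate 2 lay just above control replicate 3, so the groups overlapped. The log2 fold change was -0.18 ± 0.06 (adjusted p = 0.026, edgeR), and the call was lost without control replicate 1 (-0.14), control replicate 2 (-0.17), dexamethasone replicate 1 (-0.14) or dexamethasone replicate 3 (-0.16). Bin1 held 941, 971 and 958 CPM in controls and 1536, 1398 and 1461 with dexamethasone. Every treated library was well above every control (0.61 ± 0.05, adjusted p = 3.24e-09, edgeR). Mtm1, the lipid phosphatase of X-linked myotubular myopathy, rose from 7.18 ± 0.307 to 10.2 ± 0.645 CPM (0.51 ± 0.12). Dysferlin, Dysf, which seals membrane wounds, was not called (interval -0.14 to 0.07). Parvalbumin, Pvalb, the cytosolic calcium buffer of fast fibres, stood at 7.28, 7.6 and 6.97 CPM in controls and 4.55, 5.94 and 5.65 with dexamethasone and was lower in each treated library. Its log2 fold change of -0.44 ± 0.17 just missed the threshold (adjusted p = 0.0521, edgeR). It passed without replicate 2 of the 20 µM group (0.0281), without composition scaling (0.0336), with the replicate number as a block (0.0444) and with only the compared groups in the model (0.00197).

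**Figure D2:**
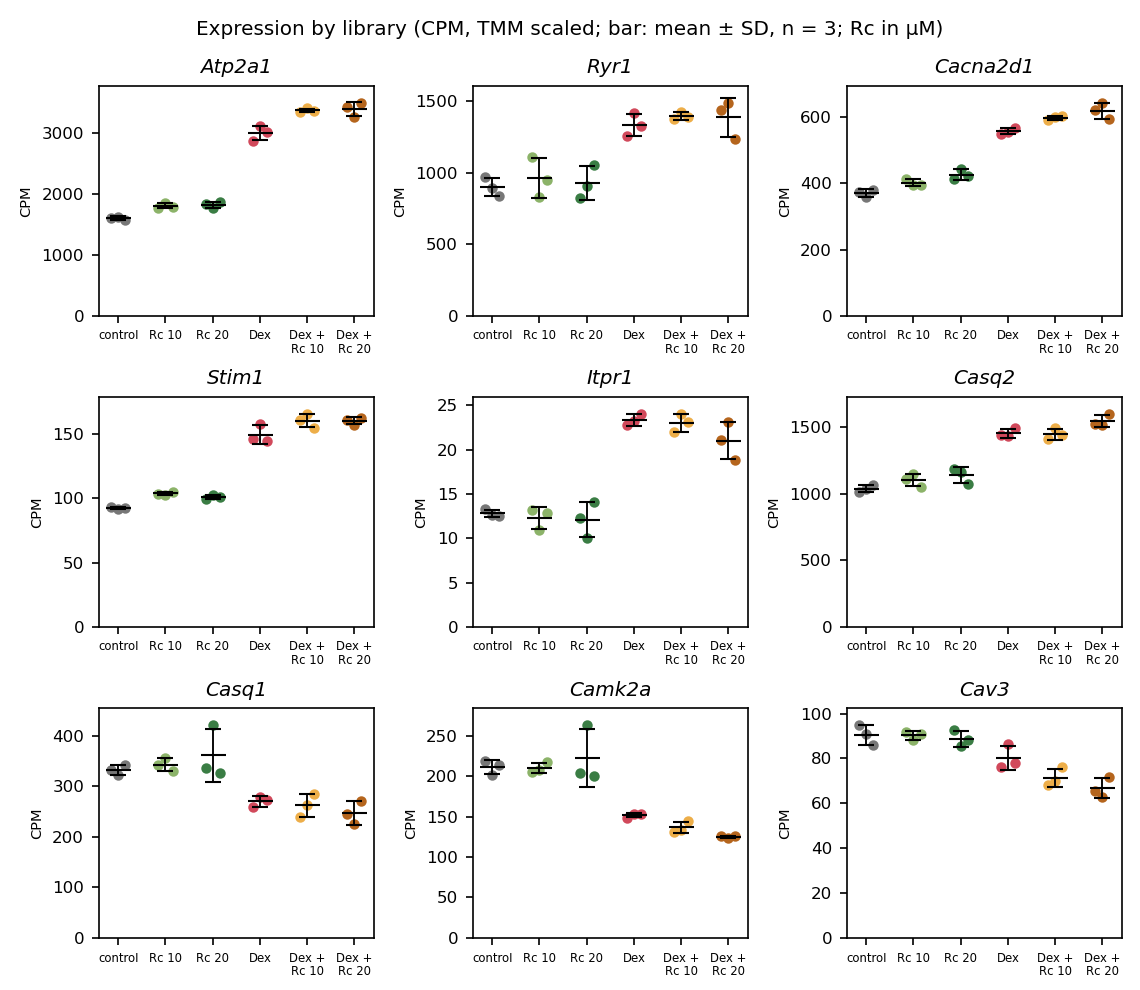
CPM of 9 members in each of the 18 libraries (points), with the group mean and SD (n = 3), on axes that start at 0. Atp2a1, Ryr1, Cacna2d1, Stim1, Itpr1 and Casq2 are higher in every library with dexamethasone than in every library without it; Casq1 and Camk2a are lower, and Cav3 overlaps where dexamethasone was given alone.

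Paralogs within the set shifted against each other. For 6 pairs the log2 ratio of counts (each plus 0.5) was taken within every library, which frees it from library scaling; it is not corrected for gene length, so only its change is read. Dexamethasone labels were permuted within each ginsenoside level (two-sided exact permutation test, 9 against 9 libraries, smallest possible p 0.00025, adjusted over the 6 pairs). Casq1 relative to Casq2 was -1.60, -1.68 and -1.64 in controls and -2.47, -2.35 and -2.44 with dexamethasone. Every library with dexamethasone was lower than every library without it, by -0.85 on average (exact permutation, adjusted p = 0.000375), which takes the count ratio from 0.316 to 0.176. Itpr1 relative to Itpr2 was -0.58, -0.52 and -0.51 in controls and 0.31, 0.34 and 0.35 with dexamethasone. The mean difference was 0.88 (exact permutation, adjusted p = 0.000375). The sign of this ratio depends on gene length and is not read. Divided by exon length, Itpr1 stood at 1.27 ± 0.0349 and Itpr2 at 1.25 ± 0.0181 CPM per kb with dexamethasone (SD, n = 3). The Atp2a1 to Atp2a2 ratio was higher with dexamethasone by 0.31 (adjusted p = 0.0009, exact permutation) and the Camk2b to Camk2a ratio by 0.48 (adjusted p = 0.000375). Ryr1 relative to Ryr3 was lower by a small amount, -0.15 (adjusted p = 0.000375, exact permutation); each of the pair rose. Jph1 relative to Jph2 was higher by 0.15 (adjusted p = 0.036, exact permutation). This last call was lost with the replicate number as a block (adjusted p = 0.0703), without all libraries numbered 1 (difference 0.13, adjusted p = 0.241) or without all those numbered 3 (difference 0.081, adjusted p = 0.398; exact permutation). Replicate 2 of the 20 µM group had a Jph1 to Jph2 ratio of -1.25, against -1.81 and -1.77 in the other libraries of that group. Without it the differences were 0.21 for the junctophilins, 0.34 for the pumps and -0.82 for the calsequestrins, with an adjusted p of at most 0.0005 for all 6 pairs (exact permutation).

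**Figure D3:**
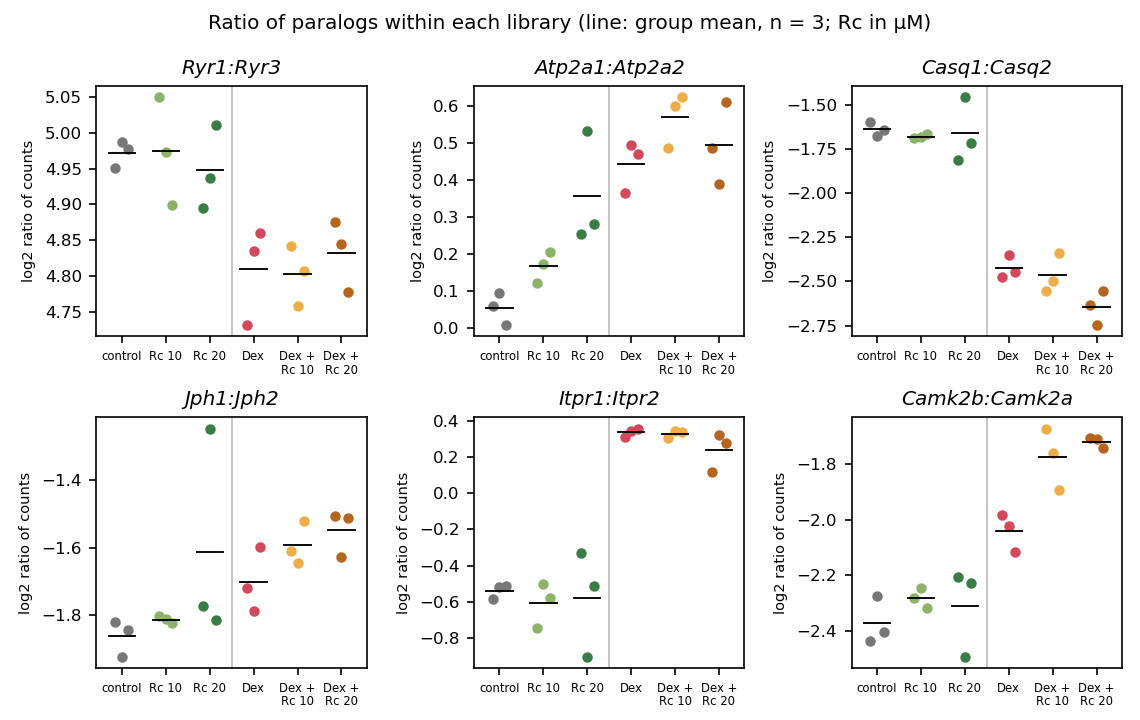
Log2 ratio of counts of 6 pairs of paralogs in each library (points; lines are group means, n = 3); the vertical line divides groups without and with dexamethasone. The Casq1 to Casq2, Itpr1 to Itpr2, Camk2b to Camk2a and Ryr1 to Ryr3 ratios separate completely. The 20 µM library at -1.25 stands alone in the Jph1 to Jph2 panel.

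The response to dexamethasone recurred in myotubes pre-treated with ginsenoside Rc, in comparisons that share no library. They do share the same model, with its scaling and its estimate of spread, so their calls are not independent. With 10 µM, 25 of 32 members were called (78.1%, against 44.2% of all genes), 19 higher (21.1% of all) and 6 lower (23% of all). Called without ginsenoside but not at 10 µM were Jph2 (log2 fold change 0.06, adjusted p = 0.44), Asph (0.06, 0.317) and Camk2b (-0.11, 0.0508, edgeR). With 20 µM, 27 of 32 were called (84.4%, against 48.9%), 21 higher (23.5% of all) and 6 lower (25.4% of all). In each of these comparisons 27 members had groups that did not overlap, against 59.7% of all genes at 10 µM and 50.1% at 20 µM. At 20 µM the call was lost for Asph in 7 of 12 alternatives, for Jph2 and Trdn in 5 each, for Atp1b1 in 3 and for Cacnb1, Jph1 and Orai1 in 1 each. Leaving out 1 library ended the call of Trdn (replicate 1 or 3 at 20 µM, or replicate 2 with dexamethasone), of Jph2 (replicate 2 at 20 µM, or replicate 1 or 2 with dexamethasone), of Asph (replicate 2 or 3 at 20 µM, or replicate 2 or 3 with dexamethasone) and of Atp1b1 (replicate 1 at 20 µM). The log2 fold changes nearest to 0 among these lost calls were 0.27 for Trdn, 0.089 for Jph2, 0.075 for Asph and 0.13 for Atp1b1. At 10 µM Clcn1 lost its call in 8 of 13 alternatives, 5 of them with 1 library left out (replicate 1 or 3 at 10 µM, or any of the 3 with dexamethasone), at a value as near 0 as -0.35, and Atp1b1 in 1. Median log2 fold changes over the 32 members were 0.28 and 0.23, against -0.0037 and 0.0022 over all genes. Across all 3 levels 19 of the 32 members were called higher each time (59.4%, against 16.3% of all genes): Atp1b1, Atp2a1, Atp2a2, Bin1, Cacna1s, Cacna2d1, Cacnb1, Cacng1, Casq2, Itpr1, Jph1, Mtm1, Orai1, Ryr1, Ryr3, Scn4a, Srl, Stim1 and Trdn. Of these, 14 kept the call in every alternative of the 3 comparisons and 5 (Atp1b1, Cacnb1, Jph1, Orai1 and Trdn) lost it in some. In the other direction Casq1, Camk2a and Cav3 were called lower each time (9.38%, against 18.7% of all genes).

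Atp2a1 gave nearly the same log2 fold change at each level: 0.90 ± 0.05 without ginsenoside, 0.90 ± 0.05 with 10 µM and 0.90 ± 0.05 with 20 µM. Ryr3 (0.73, 0.71 and 0.70) and Ryr1 (0.57, 0.54 and 0.58) had ranges of 0.03 and 0.04 over the levels. The widest range was that of Pvalb, at -0.44, -0.89 and -0.80; it was called lower at both ginsenoside levels (adjusted p = 0.000393 and 0.000805, edgeR). Camk2a followed, at -0.48, -0.62 and -0.83, and Cav3 was at -0.18, -0.34 and -0.41. Dysf, not called without ginsenoside, was called lower at 10 µM (-0.20 ± 0.05, adjusted p = 0.00315) and 20 µM (-0.14 ± 0.05, adjusted p = 0.0304, edgeR); the difference between levels is tested below. The call at 20 µM was lost in 6 of 12 alternatives (log2 fold change as near 0 as -0.098, adjusted p up to 0.146), among them leaving out replicate 1 or 3 of the 20 µM group or replicate 1 or 3 of that group with dexamethasone. At 20 µM the values rest in part on the library that stood apart: without it Camk2a was at -0.69 in place of -0.83, Atp2a2 at 0.65 in place of 0.76, Casq1 at -0.42 in place of -0.55 and Trdn at 0.63 in place of 0.39.

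**Figure D4:**
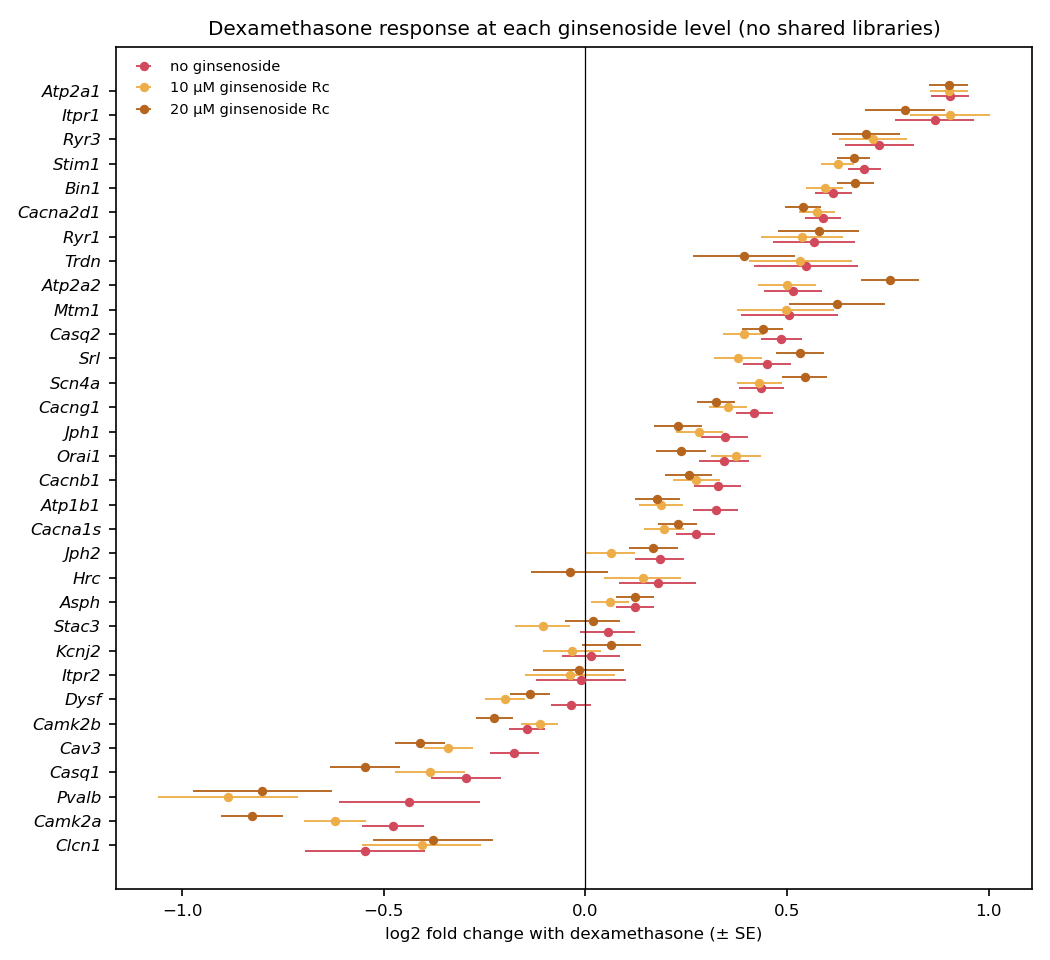
Log2 fold change with dexamethasone (± SE, 3 against 3 libraries) of the 32 tested members without ginsenoside Rc and after 10 µM or 20 µM. Points of most members lie together across the 3 levels, as for Atp2a1 near 0.90, while those of Pvalb, Camk2a and Atp2a2 are spread.

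Ginsenoside Rc by itself moved no member past the threshold. At 10 µM against control 0 of 32 were called (0.00648% of all genes), with 5 at an unadjusted p under 0.05 (2.54% of all genes) and 1 called by DESeq2; 10 had groups that did not overlap (12.1% of all genes). At 20 µM against control 0 of 32 were called (0.104% of all genes), with 10 under the unadjusted 0.05 (9.29% of all genes) and 2 called by DESeq2; 11 did not overlap (11.7% of all genes). Median log2 fold changes were 0.07 at each dose, against -0.0010 and -0.0090 over all genes. The members with the smallest p were Stim1, Atp2a1 and Cacna2d1 at 10 µM and Cacna2d1, Atp2a1 and Trdn at 20 µM. Atp2a1 stood at 1768, 1845 and 1786 CPM with 10 µM and 1829.7, 1759 and 1858 with 20 µM. All 6 libraries exceeded the 3 controls, by log2 fold changes of 0.17 ± 0.05 and 0.18 ± 0.05 (adjusted p = 1 and 0.176, edgeR). Cacna2d1 stood at 413, 396 and 395 CPM with 10 µM and 412, 443 and 423 with 20 µM. These 6 libraries too lay above the controls (0.12 ± 0.04 and 0.20 ± 0.04, adjusted p = 1 and 0.0934, edgeR). Stim1 had a log2 difference of 0.17 ± 0.04 at 10 µM and 0.13 ± 0.04 at 20 µM (adjusted p = 1 and 0.356, edgeR). Trdn at 20 µM (0.41 ± 0.13, adjusted p = 0.328) rested on replicate 2, at 57.4, 91.3 and 61.1 CPM, and was 0.17 without it. Without that library Atp2a1 at 20 µM passed the threshold (log2 fold change 0.20, adjusted p = 0.0492, edgeR).

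In the presence of dexamethasone, Atp2a1 was again above and Cav3 below the group without ginsenoside, short of the threshold. At 10 µM with dexamethasone against dexamethasone alone, 0 of 32 members were called (0.0259% of all genes), with 6 under the unadjusted 0.05 (3.85% of all genes) and 1 called by DESeq2; 6 did not overlap (10.8% of all genes). At 20 µM with dexamethasone 0 of 32 were called (0.369% of all genes), with 8 under the unadjusted 0.05 (8.75% of all genes) and 5 called by DESeq2; 8 did not overlap (14.9% of all genes). Atp2a1 held 3343, 3396 and 3350.0 CPM at 10 µM and 3424, 3260.3 and 3484 at 20 µM. Each of these 6 libraries lay above the 3 with dexamethasone alone, by 0.17 ± 0.05 and 0.18 ± 0.05 on the log2 scale (adjusted p = 0.713 and 0.118, edgeR). Cav3 held 68.1, 69.8 and 76 CPM at 10 µM and 65.6, 63 and 71.9 at 20 µM. All 6 were below the libraries with dexamethasone alone, by log2 differences of -0.17 ± 0.06 and -0.26 ± 0.06 (adjusted p = 1 and 0.07, edgeR). Camk2a at 20 µM held 126, 124 and 126 CPM. These values lay under those of dexamethasone alone (-0.28 ± 0.08, adjusted p = 0.136, edgeR). With replicate 2 of the 20 µM group left out of the model, although it stands in neither group, 4 members passed, among them Camk2a (adjusted p = 0.000621), Cav3 (0.011) and Atp2a1 (0.0175, edgeR). Dysf at 10 µM with dexamethasone differed from dexamethasone alone by -0.13 ± 0.05 (adjusted p = 1, edgeR).

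**Figure D5:**
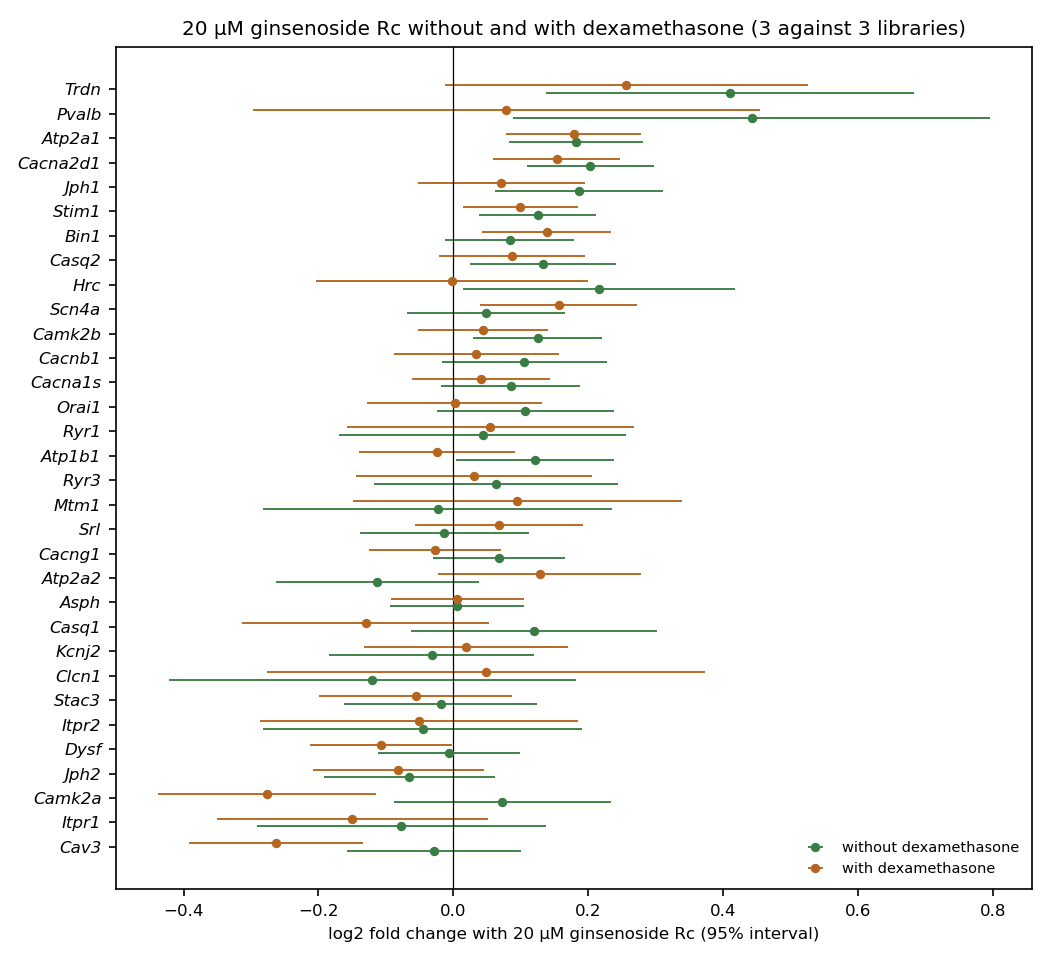
Log2 fold change with 20 µM ginsenoside Rc and its 95% interval for the 32 tested members, without dexamethasone (against control) and with it (against dexamethasone alone), 3 against 3 libraries each. Atp2a1 lies near 0.18 in both, while Cav3 goes from -0.03 without to -0.26 with dexamethasone and Camk2a from 0.07 to -0.28. The gap between the Camk2a values rests in part on replicate 2 of the 20 µM group. Without that library it was -0.21 in place of -0.35. No point passed the threshold.

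Whether ginsenoside Rc changed the dexamethasone response was tested as an interaction. At 10 µM 0 of 32 members were called (0% of all genes), with 1 under the unadjusted 0.05 (2.12%), and at 20 µM 0 of 32 (0% of all genes), with 3 under it (5.29%); DESeq2 also called 0 members at each dose. At 20 µM the smallest p belonged to Camk2a, whose response was more negative by -0.35 ± 0.11 (95% interval -0.58 to -0.12, adjusted p = 0.885, edgeR), or by -0.21 without the library that stood apart. Cav3 (-0.23 ± 0.09, interval -0.42 to -0.05) and Atp2a2 (0.24 ± 0.10, interval 0.03 to 0.45) followed; without that library they were -0.26 and 0.14. At 10 µM Dysf (-0.16 ± 0.07), Cav3 (-0.16 ± 0.09) and Pvalb (-0.45 ± 0.25) came nearest, each with an adjusted p of 1 (edgeR). For Atp2a1 the interval of the interaction was -0.14 to 0.14 at 10 µM and -0.14 to 0.14 at 20 µM. The mean of the ginsenoside effect without and with dexamethasone, a comparison added after the values had been seen, called 2 members higher at 20 µM (0.395% of all genes were called higher and 1.46% in either direction), with 11 under the unadjusted 0.05 (11.6% of all genes). These were Cacna2d1 (0.18 ± 0.03, adjusted p = 0.00683) and Atp2a1 (0.18 ± 0.03, adjusted p = 0.0103, edgeR). With the compared groups alone in the model that count was 0, and without replicate 2 of the 20 µM group it was 6 (5 higher, 1 lower). At 10 µM it called 0 (0.0259% of all genes), with 6 under the unadjusted 0.05 (4.19% of all genes) and 2 called by DESeq2; Atp2a1 was at 0.17 ± 0.03 (adjusted p = 0.133, edgeR).

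Other genes of the pathway, in 5 wider lists that exclude the members, were called in both directions with dexamethasone, beside 20.6% of all genes higher and 23.2% lower; nothing particular to a list is read from its count. Of the reticulum and junction list, 7 rose and 4 fell of 15 tested (20 listed), with a median log2 fold change of -0.01. The counter-ion channel Tmem38b rose (0.77 ± 0.06, adjusted p = 1.87e-08), as did the SERCA inhibitor myoregulin, Mrln (1.16 ± 0.15, from 1.99 ± 0.231 to 4.45 ± 0.264 CPM), and the reticulum calcium-binding protein calumenin, Calu, fell (-0.42 ± 0.04). Of the surface channels, pumps and exchangers, 8 rose and 9 fell of 30 tested (33 listed; median -0.05). The α2δ relative Cacna2d2 fell (-3.03 ± 0.18, from 4.85 ± 0.548 to 0.592 ± 0.0566 CPM), while Cacna2d1 among the members rose. The plasma membrane calcium pump Atp2b4 also fell (-1.12 ± 0.09). In the list of store-operated entry and mitochondrial uptake, 5 rose and 2 fell of 16 tested (median 0.04). The mitochondrial uniporter Mcu rose (0.43 ± 0.06), and the inhibitory pore subunit Mcub fell (-0.48 ± 0.08). Of 23 genes of calmodulin, its kinases, calpains and calcineurin, 6 rose and 10 fell (median -0.09), among them the calpain Capn3 (-0.51 ± 0.05) and the calmodulin gene Calm2 (-0.39 ± 0.05), which fell, and the kinase Camk2d (0.36 ± 0.05), which rose while Camk2a and Camk2b fell. Of 18 genes of caveolae, membrane repair and tubules, 4 rose and 8 fell (median -0.10): the caveolins Cav1 (-1.44 ± 0.14) and Cav2 (-1.25 ± 0.11) and the annexin Anxa5 (-0.28 ± 0.04) fell, as Cav3 did. All changes named have adjusted p under 0.05 (edgeR).

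Markers of other cell types were measured in the same libraries, where 20.6% of all genes were called higher and 23.2% lower with dexamethasone. In the myoblast list 3 rose and 8 fell of 11, and in the myotube list 6 rose and 2 fell of 10. Among the myotube genes the embryonic myosin Myh3 fell (-0.90 ± 0.08) and the creatine kinase Ckm rose (0.77 ± 0.07). The cardiac list summed to 1377 to 1447 CPM in controls and 1897 to 1991 with dexamethasone, nearly all of it Tnnt2 (1347 ± 32.1 and 1884 ± 54.8 CPM), a gene of immature skeletal muscle as well. Of its 8 genes 2 rose and 1 fell of 5 tested, Myl7 was at 0, and Ryr2 had at most 7 counts. The smooth muscle list summed to 2494 to 2512 and 1660.2 to 1869 CPM (1 rose and 4 fell of 5 tested of 6), with Myh11 at 2 to 7 counts. The adipocyte list summed to 16.3 to 18 and 73.5 to 79.5 CPM (3 of 3 tested of 7 rose), with Plin1 at 0 and Adipoq at 0 to 1 count. The osteoblast and chondrocyte list summed to 88.1 to 94.1 and 66.4 to 71.1 CPM (0 rose and 3 fell of 4 tested of 8). The neuron list summed to 99.3 to 105 and 74.1 to 78.4 CPM (1 rose and 2 fell of 3 tested of 6), with Rbfox3 at 0. Their part in the members' changes was not tested.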

How the data were processed

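Poly-A RNA of 18 C2C12 libraries was read as 100 bp paired ends from a strand-directional kit, per the labels' protocols. Tools listed in the submitters' processing notes are STAR 2.7.3a, RSEM 1.3.3, Trim Galore 0.6.5 and FastQC 0.11.9, with the build GRCm38 (mm10). The authors deposited expected counts, estimated fragments per Ensembl gene, of which 9.27% were not whole. The sources used here give neither the annotation release nor the strand setting. Symbols and coordinates came from GENCODE M21 (48435 IDs named) and promoters from RefSeq.

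Expected counts were rounded, filtered (filterByExpr) and TMM scaled. A model with a mean for each of the 6 groups was then estimated from the 18 libraries by edgeR 4.0.16 (robust quasi-likelihood, R 4.3.3), with Benjamini-Hochberg adjustment at 0.05; it was tested on simulated counts. SE is the log2 fold change over the square root of F. Of 11 comparisons, 9 were planned and 2 were added after the values were seen. The members and lists were chosen with earlier results of these data known. All tested members are named with dexamethasone; library values are for the 6 largest rises and falls called with average log2 CPM from 1 upwards, and for Ryr1, Cacna1s and Atp2a1. Elsewhere the called members, the 3 smallest p-values and, per wider list, the 3 smallest adjusted p are named, except for results that are not reported here. Chosen after values were seen were the library values of Casq2, Clcn1 and Pvalb, Stim1 at 20 µM, and the promoters shown. Alternatives were DESeq2 1.42.0, its size factors, scaling without composition, every expressed gene kept, a model of the compared groups alone, a replicate block and each library left out; the ratios without replicate 2 of the 20 µM group were added after seeing the data.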

Additional observations from a re-analysis of the deposited data

How the results depend on the processing

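Of the 26 members called with dexamethasone against control, 21 kept their call in each of 13 alternatives and 5 lost it in some (Asph, Cav3, Camk2b, Jph2 and Clcn1); none of the 26 turned direction. Leaving out 1 library gave 19 to 22 members higher and 3 to 6 lower, with 3 lower without control replicate 2, dexamethasone replicate 1 or dexamethasone replicate 3. Uncalled members near 0 changed sign. Without composition scaling Stac3 was at -0.011 and Kcnj2 at -0.052. With 1 library left out Stac3 ran from -0.00445 to 0.099, Kcnj2 from -0.00764 to 0.037, Itpr2 from -0.031 to 0.040 and Dysf from -0.081 to 0.00837.

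Ginsenoside counts changed with the tool and with single libraries. At 10 µM without dexamethasone DESeq2 called 1 member, higher; at 20 µM it called 2, both higher, and leaving out 1 library gave 0 to 1. With dexamethasone DESeq2 called 1 member at 10 µM, higher. At 20 µM it called 5 (3 higher, 2 lower), the model of the compared groups alone 2 (1 higher, 1 lower), and the table without a low-count filter 1, lower; leaving out 1 library gave 0 to 4 (0 to 2 each way), with 4 without replicate 2 of the 20 µM group and 1 without replicate 3 of the 20 µM group with dexamethasone. Averaged over dexamethasone, 10 µM gave 2 members, all higher, with DESeq2, with the compared groups alone and without replicate 2 of the 20 µM group (0 to 2 with 1 library left out). At 20 µM the average gave 6 higher with DESeq2, 0 with the compared groups alone and 2 to 6 with 1 library left out (2 to 5 higher, 0 to 1 lower). The cause was not tested.

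At a single ginsenoside level no pair's ratio can pass (smallest exact p 0.1). At 0, 10 and 20 µM the differences were -0.16, -0.17 and -0.11 for Ryr1 to Ryr3, 0.39, 0.40 and 0.14 for Atp2a1 to Atp2a2, -0.78, -0.78 and -0.98 for Casq1 to Casq2, 0.16, 0.22 and 0.063 for Jph1 to Jph2, 0.88, 0.93 and 0.82 for Itpr1 to Itpr2, and 0.33, 0.51 and 0.59 for Camk2b to Camk2a. Without replicate 2 of the 20 µM group the 20 µM differences were 0.23 for Atp2a1 to Atp2a2 and 0.24 for Jph1 to Jph2. Jph1 to Jph2 ran from 0.081 to 0.23 with a replicate number left out.

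With the replicate block 27 members were called with dexamethasone against control (21 higher, 6 lower), and the Jph1 to Jph2 difference of 0.15 lost its call. Deviations of same-numbered libraries correlated at -0.20 to 0.15 over 15 pairs of groups, 0 of which had every correlation over 0.1. In 2 pairs every library correlated best with its own number. With 3 libraries per group these values cannot decide whether same-numbered libraries share an origin. Depth, at 32350889 to 45388609 counts a library, limits Sln and Clcn1.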
